A study of Mus musculus with 10 samples.

Results

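MHC class II molecules carry peptides taken up from outside the cell to the surface of antigen-presenting cells, where CD4+ T cells read them. Macrophages, dendritic cells and B cells make the class II chains constitutively, interferon gamma induces them in other cells, and resident macrophages are known in the spiral ligament, the stria vascularis and among the auditory neurons of the cochlea. 7 genes of this route were taken by their symbols from the 54532 genes of the count files: the A chains H2-Aa and H2-Ab1, the E beta chain H2-Eb1, the invariant chain Cd74, the peptide exchange factors H2-DMa and H2-DMb1, and the coactivator Ciita, which is recruited to class II promoters and on which their transcription depends. All 7 were found, and all 7 passed the expression filter.

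The cochleae for RNA-seq came from mice of the mtKeima strain, aged 12 months. The strain carries a pH-dependent reporter protein in its mitochondria, which tells those inside lysosomes from those outside, and served here as the wild type. It is on a mixed genetic background, and by genotyping the paper found the mice wild type for cadherin23 and Nnt. Whether differences in background between the mice bear on the levels below was not tested. 5 mice were NR-treated, with nicotinamide riboside, a precursor of NAD+, at 7 mg/ml, or 24 mM, dissolved in what they drank from 2 months of age for 10 months, and the 5 non-treated mice, labelled Vehicle in the plots, had regular water. Each library came from 1 mouse. The comparison of NR-treated against non-treated mice asks whether the supplement moved the level of these genes in the ageing cochlea.

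Libraries held 17060379 to 24419230 counts. All 12 cochlear markers were detected, although the hair cell gene Slc26a5 reached only 0.0464 CPM in its lowest library, and markers of bone marrow and blood were counted in the same RNA. The mean log2 CPM of the cochlear list lay between 5.44 and 6.52 in the NR-treated and between 5.99 and 7.43 in the non-treated mice, and 7 of its 12 genes were lower in the NR-treated mice at an unadjusted p of 0.05, against 894 of all 18329 genes tested (4.88%). Higher at the same threshold were 5 of 6 adipocyte genes (median log2 fold change 2.08) and 5 of 7 skeletal muscle genes (median 4.29). Over all genes tested, 886 (4.83%) were higher. The adipocyte list includes Plin1 and Cidec, which the paper also found raised with NR in the cochlea by RT-PCR. The mean log2 CPM of the muscle list ranged from 0.41 to 6.31 in the NR-treated mice. In the non-treated mice it ranged from −0.04 to 3.27, and NR-treated mouse 1 ranked 8th of the 10 mice. DESeq2 called 3 of the adipocyte, 2 of the muscle and 0 of the cochlear genes at an adjusted p of 0.05, where edgeR called 0. The mice are labelled female, whereas the methods of the study describe male mice for the isolation of cochlear RNA. Xist did not exceed 0.405 CPM and the Y-linked Ddx3y was at 64.5 CPM or more in every library, so the 10 libraries go against the label. As bulk RNA was measured, fewer cells of a type and less RNA per cell cannot be told apart.

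Class II promoters share an X box, read by the RFX complex, and downstream of it a Y box, an inverted CCAAT read by NF-Y; Ciita acts through the proteins on them. The RefSeq promoters of 3 of the 7 genes that hold this pair of letters are printed here in full (GRCm38.p6, the coordinates of mm10, each read 5′ to 3′ on the strand of its gene), because this pair is the element that class II genes are known to share. Capitals mark the X-like letters and the ATTGG after them.
H2-Aa, chr17:34287774-34288073, minus strand: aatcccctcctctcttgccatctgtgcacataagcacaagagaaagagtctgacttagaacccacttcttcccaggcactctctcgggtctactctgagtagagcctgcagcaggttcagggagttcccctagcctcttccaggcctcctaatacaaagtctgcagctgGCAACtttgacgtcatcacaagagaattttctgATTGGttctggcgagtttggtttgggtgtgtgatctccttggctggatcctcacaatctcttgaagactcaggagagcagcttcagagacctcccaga
H2-Eb1, chr17:34305617-34305916, plus strand: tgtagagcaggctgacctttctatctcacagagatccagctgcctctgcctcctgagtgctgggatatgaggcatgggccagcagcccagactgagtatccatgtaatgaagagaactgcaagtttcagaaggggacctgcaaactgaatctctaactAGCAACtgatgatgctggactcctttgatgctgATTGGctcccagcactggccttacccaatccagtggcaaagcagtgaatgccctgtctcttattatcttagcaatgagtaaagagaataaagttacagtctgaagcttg
H2-DMb1, chr17:34152941-34153240, plus strand: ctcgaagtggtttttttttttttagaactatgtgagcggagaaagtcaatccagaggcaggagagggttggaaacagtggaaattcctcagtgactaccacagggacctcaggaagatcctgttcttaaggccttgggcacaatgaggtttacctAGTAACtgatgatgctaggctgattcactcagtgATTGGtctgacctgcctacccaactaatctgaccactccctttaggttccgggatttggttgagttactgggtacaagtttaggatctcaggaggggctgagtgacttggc

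The letters AGNAAC followed, after 20 to 34 bases, by ATTGG were searched on both strands of all 32851 promoters of the table, each 300 bases long, and 253 promoters (0.77%) held them. H2-Eb1 and H2-DMb1 did, with 27 and 28 bases between. H2-Aa held the pair only under the looser start GNAAC, which was tried after its promoter had been read, contains the stricter letters, and occurred in 821 promoters (2.50%). CCAAT alone, in either orientation, is part of both and was common, in 12289 promoters (37.4%). The same module, with a few bases on either side, follows for 3 further class II genes that are not members, for comparison of the letters. H2-DMb2, at chr17:34144999-34145298, was searched as well and held the pair under neither start.
H2-Oa, chr17:34092298-34092344, plus strand: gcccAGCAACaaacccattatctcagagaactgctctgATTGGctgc
H2-Ob, chr17:34238813-34238856, plus strand: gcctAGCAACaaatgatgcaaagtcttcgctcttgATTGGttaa
H2-Eb2, chr17:34325538-34325583, plus strand: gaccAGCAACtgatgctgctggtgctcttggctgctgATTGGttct

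Both windows listed for H2-DMa, at chr17:34122582-34122881 and chr17:34125268-34125567, lie upstream of the start that the count files give for this gene, and neither held the pair. H2-Ab1 and Ciita had no entry in the table. The promoter of Cd74 is not reported here, so nothing is said of its letters. A match is a run of letters and was not tied to binding in these libraries.

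No difference between NR-treated and non-treated mice was detected in any of the 7 genes. On the edgeR quasi-likelihood test, 0 of the 7 passed an adjusted p of 0.05, where 0 of 18329 genes did (0%). At an unadjusted p of 0.05, 0 of the 7 passed, against 1780 of all genes (9.71%). DESeq2 called 0 of the 7 as well, against 103 genes (0.563%) at an adjusted and 1927 genes (10.5%) at an unadjusted p of 0.05. The values of the groups overlapped for all 7, whereas they did not overlap for 302 of all genes (1.65%). The fitted log2 fold changes of the members lay between −0.07 and 0.23, beside a median of −0.009 over all genes tested.

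The spread between mice of the same group was larger than any difference between the groups. NR-treated mouse 1 had the highest level of all 7 genes and non-treated mouse 3 the next highest of all 7, so that the top of the range held 1 mouse of each group. NR-treated mouse 2 had the lowest level of 6 of the 7, and non-treated mouse 4 that of H2-Eb1. Over all genes tested, NR-treated mouse 1 was the highest library for 12.4% and NR-treated mouse 2 the lowest for 10.7%. Non-treated mouse 3 was the highest for 8.30% of them and among the top 2 libraries for 22.0%. Together, the members took 0.0728% of the counts in NR-treated mouse 1, 0.0570% in non-treated mouse 3, and between 0.0137% and 0.0340% in the other 8 mice.

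**Figure D1:**
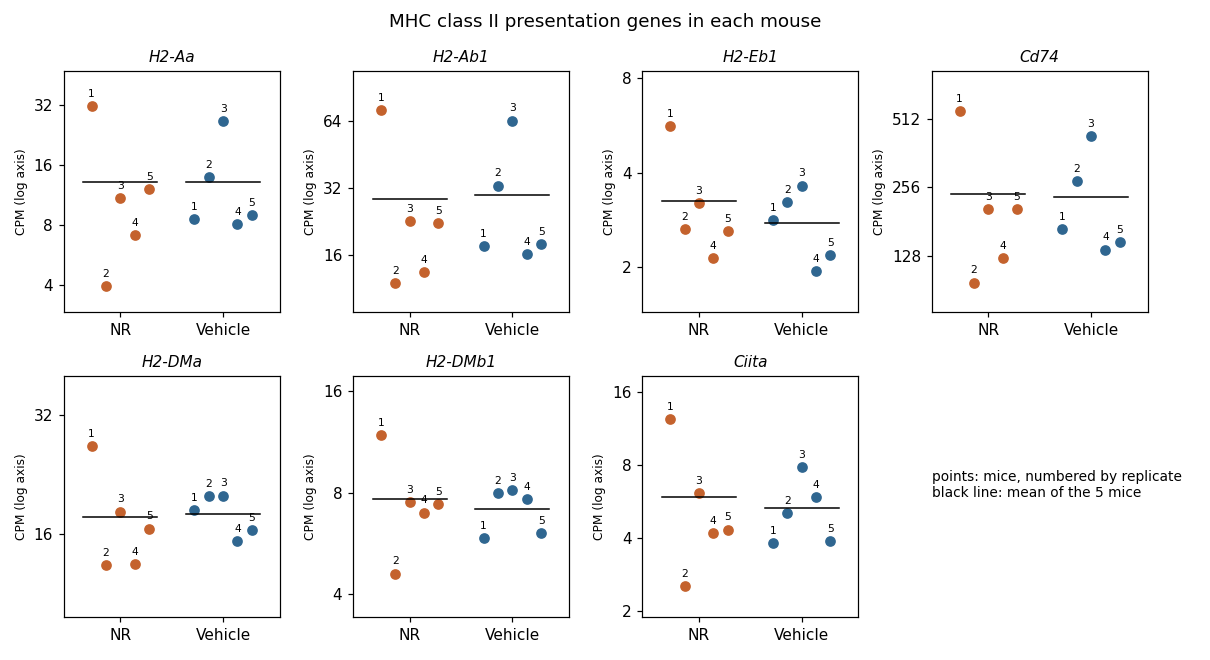
CPM (log axis, base 2) of each of the 7 class II genes, with 1 numbered point per mouse for the 5 NR-treated and 5 non-treated (Vehicle) mice and a black line at each group's mean. NR-treated mouse 1 is the highest point in every panel and non-treated mouse 3 the second highest, while the lines of the groups lie close together.

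H2-Aa, the A alpha chain, lies at chr17:34282744-34287827 on the minus strand (mm10). It was counted at 31.9, 3.94, 10.9, 7.12 and 12.2 CPM in NR-treated mice 1 to 5 and at 8.54, 14.0, 26.7, 8.07 and 8.96 CPM in non-treated mice 1 to 5. Only NR-treated mouse 1 and non-treated mouse 3 exceeded 20 CPM, and the highest library stood 8.10-fold above the lowest. The group means were 13.2 with an SD of 10.9 CPM and 13.2 with an SD of 7.87 CPM over 5 mice each. The fitted log2 fold change was −0.01 with a standard error of 0.52 (95% interval −1.16 to 1.14, adjusted p of 0.997 by edgeR's quasi-likelihood test). An exact permutation test over all 252 labelings of the log2 CPM gave a two-sided p of 0.786, where the smallest value possible is 0.00794.

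H2-Ab1, the beta chain that pairs with it, lies at chr17:34263209-34269418 on the plus strand. Its levels were 71.7, 11.9, 22.6, 13.4 and 22.2 CPM in the NR-treated mice and 17.5, 32.7, 64.2, 16.1 and 17.8 CPM in the non-treated mice, in the order of their numbers. The same pair of mice stood above 60 CPM, and the other 8 did not pass 33 CPM. The group means of 28.4 ± 24.7 CPM and 29.7 ± 20.4 CPM (SD, n = 5) gave a log2 fold change of −0.07 with a standard error of 0.54 (95% interval −1.27 to 1.13), and the exact permutation p was 0.754.

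H2-Eb1, the beta chain of the E molecule, at chr17:34305877-34316199 on the plus strand, was the member with the fewest reads, 44 to 117 per library. Its values were 5.64, 2.64, 3.20, 2.14 and 2.6 CPM with NR and 2.83, 3.23, 3.64, 1.94 and 2.18 CPM without. The highest library was 2.91-fold above the lowest, a narrower range than that of the A chains. Its log2 fold change of 0.23 was the highest among the members, with a standard error of 0.28 (95% interval −0.39 to 0.85, exact permutation p of 0.603). The alpha chain that would complete the molecule is annotated as a pseudogene, H2-Ea-ps, in the reference, and it was counted at 1.12 to 4.72 CPM, again with its maximum in NR-treated mouse 1.

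H2-DMa and H2-DMb1 form the H2-DM dimer, which trades the invariant chain remnant for a peptide. H2-DMa, at chr17:34135182-34139101 on the plus strand, was the steadiest member, at 26.6, 13.4, 18.3, 13.5 and 16.6 CPM in the NR-treated and 18.4, 19.98, 20.03, 15.4 and 16.4 CPM in the non-treated mice. Its highest library was 1.99-fold above its lowest, and non-treated mouse 3 differed from non-treated mouse 2 by less than 0.1 CPM. The log2 fold change was −0.03 with a standard error of 0.18 (95% interval −0.43 to 0.37), the narrowest interval of the 7. H2-DMb1, at chr17:34153072-34160230 on the plus strand, was at 11.9, 4.61, 7.53, 6.99 and 7.41 CPM with NR and 5.86, 7.99, 8.17, 7.67 and 6.08 CPM without, and here too non-treated mice 2, 3 and 4 lay within 1 CPM of each other. Its log2 fold change was 0.10 with a standard error of 0.22 (95% interval −0.38 to 0.58). The exact permutation p was 0.722 for H2-DMa and 0.817 for H2-DMb1.

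The H2-DM counts carry a limit of their own. Of the 100-base windows in the transcripts of H2-DMb1, 11.3% also occur in those of its neighbour H2-DMb2, so that part of the signal of the pair is uncertain. Exons of Brd2 on the opposite strand cover 10.4% of the annotated exon bases of H2-DMa, and those of Dexi cover 3.45% of Ciita, and the counting did not use strand. H2-Aa, H2-Ab1 and H2-Eb1 shared no such window with another gene and overlapped no other exon. Both checks used the reference only. How reads that differ from it were aligned in mice of this mixed background was not tested.

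Ciita, at chr16:10480059-10528418 on the plus strand, was counted at 12.4, 2.55, 6.14, 4.19 and 4.34 CPM in the NR-treated and at 3.82, 5.07, 7.85, 5.91 and 3.90 CPM in the non-treated mice. NR-treated mouse 1 again led, 4.86-fold above NR-treated mouse 2, with non-treated mouse 3 in second place. The log2 fold change was 0.15 with a standard error of 0.38 (95% interval −0.68 to 0.99), and the group means of the log2 CPM were so close that the exact permutation p was 1.

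Cd74, the invariant chain, which fills the groove of new class II molecules and guides them to the endosome, lies at chr18:60803848-60812646 on the plus strand. It was by far the most abundant member, at 557, 97.6, 206, 125 and 206 CPM in the NR-treated and 167, 274, 433, 136 and 147 CPM in the non-treated mice. It made up 71.2% to 77.7% of the reads of the 7 genes in every library, and it ranked 144th among all genes in NR-treated mouse 1 and 2347th in NR-treated mouse 2. Averages of 238 ± 185 CPM with NR and 232 ± 125 CPM without (SD, n = 5) went with a log2 fold change of 0.04 and a standard error of 0.48 (95% interval −1.01 to 1.09, exact permutation p of 0.873). A microRNA gene on the same strand shares 12 of its exon bases.

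**Figure D2:**
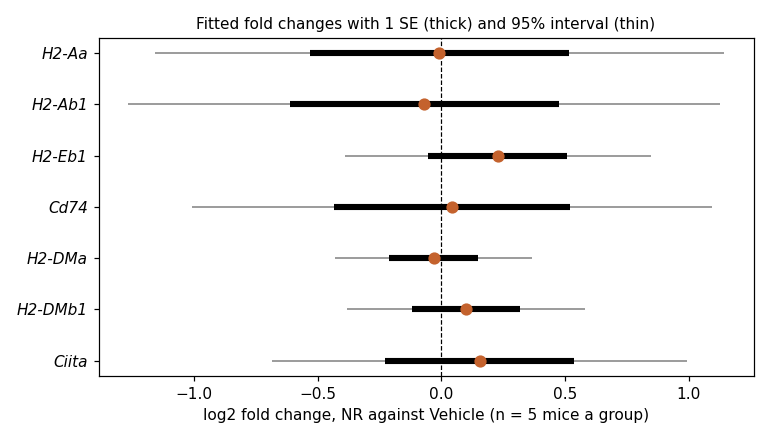
Fitted log2 fold change of NR-treated against non-treated mice (n = 5 a group) for the 7 genes, with a thick bar for 1 standard error and a thin bar for the 95% interval. Every interval spans 0, from the narrowest in H2-DMa (−0.43 to 0.37) to those of H2-Aa, H2-Ab1 and Cd74, which pass 1 on both sides.

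The intervals leave changes of up to about the size of the spread between mice undetectable for the A chains and Cd74. The direction turned with the mouse left out. Without NR-treated mouse 1, all 7 log2 fold changes were negative, from −0.77 in H2-Ab1 to −0.06 in H2-Eb1, and without non-treated mouse 3 all 7 were positive, from 0.02 in H2-DMa to 0.44 in H2-Ab1. With both mice left out, an alternative chosen after seeing the data, the values lay between −0.26 in H2-Ab1 and 0.06 in H2-Eb1, with 0 of the 7 at an unadjusted p of 0.05.

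The within-group SD of the log2 CPM was 0.93 for H2-Aa, 0.94 for H2-Ab1, 0.84 for Cd74 and 0.66 for Ciita. These values exceeded the SD of 97.9%, 97.9%, 97.1% and 93.3% of all genes tested. The SDs of H2-Eb1 (0.45), H2-DMb1 (0.37) and H2-DMa (0.31) exceeded those of 81.6%, 74.7% and 68.0%. The A chains and Cd74 were thus among the genes that varied most between mice of one group, although Cd74 was also more abundant than 95.7% of the genes tested.

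Levels of different genes were compared per length, as CPM per kilobase of the length given in the files. The order was Cd74 at 167 ± 106 (SD, n = 10 mice), H2-Ab1 at 17.7 ± 13.1, H2-DMa at 10.9 ± 2.37, H2-Aa at 7.06 ± 4.80, H2-DMb1 at 4.99 ± 1.29, H2-Eb1 at 2.54 ± 0.90 and Ciita at 0.59 ± 0.29. Cd74 lay above H2-Ab1 in 10 of 10 mice, by 7.83- to 11.1-fold. H2-DMb1 lay above H2-Eb1 and H2-Eb1 above Ciita in 10 of 10 as well. H2-Ab1 exceeded H2-DMa in only 7 of 10 mice, H2-DMa exceeded H2-Aa in 8 of 10 and H2-Aa exceeded H2-DMb1 in 7 of 10. The median ratios within a mouse were 1.17, 2.00 and 1.16 for these pairs. The order of those neighbours was thus not the same in every mouse, and their differences were not tested.

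Ratios of members within a library need no scaling between libraries, and they showed how the class II chains moved relative to each other. As log2 ratios of read counts, H2-Aa to H2-Ab1 was −1.12 ± 0.29 with NR and −1.10 ± 0.13 without (SD, n = 5), and 9 of the 10 mice lay between −1.27 and −0.87, the exception being NR-treated mouse 2 at −1.59 with 88 reads of H2-Aa. Cd74 to H2-Ab1 was 3.12 ± 0.12 with NR and 3.04 ± 0.18 without. H2-Eb1 to H2-Ab1 was −2.87 ± 0.56 with NR and −3.23 ± 0.56 without. H2-DMa to H2-Ab1 was −0.40 ± 0.62 with NR and −0.50 ± 0.72 without.

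No difference between the groups was detected in any ratio. Over the 4 ratios, the exact two-sided permutation p was 0.929, 0.349, 0.437 and 0.770 for H2-Aa, H2-Eb1, Cd74 and H2-DMa against H2-Ab1, and none was below 0.873 after Benjamini-Hochberg adjustment. The ratios of the mice with the most class II RNA are given as values only, since these mice were also the highest in the denominator H2-Ab1, which by itself lowers ratios of less variable genes. H2-DMa to H2-Ab1 was −1.43 in NR-treated mouse 1 and −1.68 in non-treated mouse 3, and between −0.71 and 0.17 in the other 8. H2-Eb1 to H2-Ab1 was −3.66 and −4.13 in those mice and between −3.33 and −2.16 in the other 8.

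**Figure D3:**
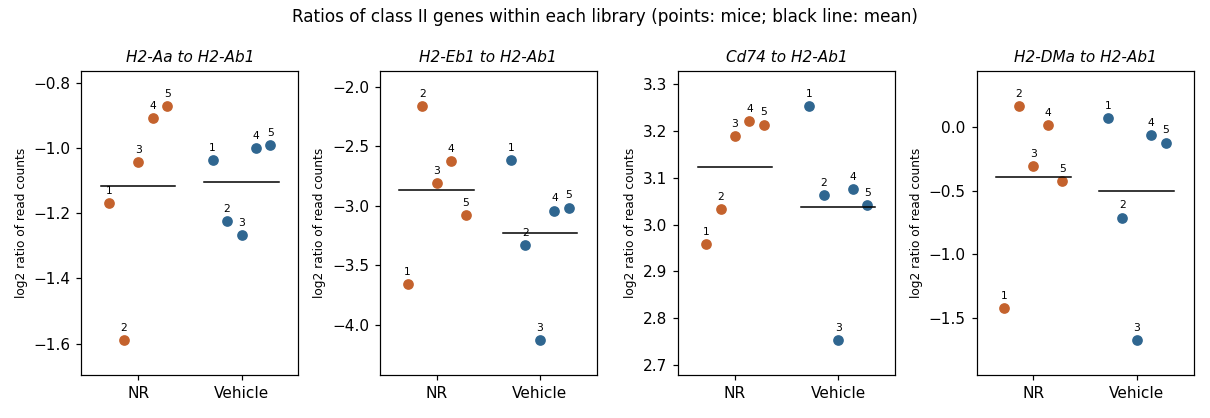
Log2 ratio of read counts of H2-Aa, H2-Eb1, Cd74 and H2-DMa to H2-Ab1 within each library, with 1 numbered point per mouse and a black line at the mean of each group of 5 mice. The groups overlap in all 4 panels, and NR-treated mouse 1 and non-treated mouse 3 are the lowest points for H2-Eb1, Cd74 and H2-DMa.

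The members varied together from mouse to mouse. Over the 21 pairs, Pearson's r of the log2 CPM across the 10 mice lay between 0.65 and 0.99, with a median of 0.87, and all points of a pair share library and scaling. Ciita followed H2-DMb1 most closely (r = 0.95, Spearman's rho = 0.95) and H2-Eb1 least (r = 0.72, rho = 0.53). Over the 6 relations of Ciita with the other members, permutation tests gave adjusted p-values of 2.4e-04 for r and 8.4e-04 for rho with H2-DMb1, and of 0.0341 and 0.124 with H2-Eb1 (raw p of 4e-05, 1.4e-04, 0.0341 and 0.124). For H2-Aa, H2-Ab1 and Cd74, r was 0.90, 0.86 and 0.87, each with an adjusted p of 0.00315, and rho was 0.76, 0.79 and 0.75, each with an adjusted p of 0.0256. For H2-DMa, r was 0.83 and rho 0.67, with adjusted p-values of 0.00751 and 0.0457. Without NR-treated mice 1 and 2, the farthest from the median of Ciita, r fell to 0.80 for H2-DMb1, 0.70 for H2-Aa, 0.72 for H2-Ab1, 0.68 for Cd74, 0.50 for H2-Eb1 and 0.44 for H2-DMa over 8 mice. Over the same mice rho was 0.90 for H2-DMb1, 0.52 for H2-Aa, 0.60 for H2-Ab1, 0.50 for Cd74, 0.43 for H2-Eb1 and 0.36 for H2-DMa. All 6 relations thus rest in part on NR-treated mice 1 and 2, and that with H2-DMb1 stayed the closest by both r and rho. With the group means removed, r lay between 0.73 and 0.95.

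Outside the 7, genes whose log2 CPM closely resembled the mean of the members across the 10 mice were Gbp2 (r = 0.97), H2-K1 (0.94), H2-D1 (0.94), H2-Q4 (0.94), Nfkb2 (0.94), Anxa4 (0.93), Sbno2 (0.92), Atf3 (0.92) and C1ra (0.92), out of 18322 genes compared. Gbp2 encodes an interferon-inducible GTPase, H2-K1, H2-D1 and H2-Q4 are class I heavy chains, Nfkb2 is a subunit of NF-kB, and C1ra is a protease of complement. Gbp2 was at 29.4 CPM in NR-treated mouse 1, 22.9 CPM in non-treated mouse 3 and 12.3 CPM in NR-treated mouse 2, its lowest. Without NR-treated mouse 1 and non-treated mouse 3, r stayed at 0.93 for Gbp2, 0.92 for H2-K1, 0.93 for H2-D1 and 0.93 for H2-Q4. It fell to 0.84 for Nfkb2, 0.78 for C1ra, 0.77 for Anxa4, 0.77 for Sbno2 and 0.64 for Atf3. These 9 genes had an adjusted p above 0.7 in the comparison of the groups.

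Of the other class II chains and the proteins that load or process peptides, 14 of 15 genes found were tested, and 1 was lower and 0 higher in the NR-treated mice at an unadjusted p of 0.05, and the median log2 fold change was 0.01. The one was March8, a ubiquitin ligase that can remove membrane proteins from the surface, at 108 ± 7.1 CPM with NR and 128 ± 23 CPM without (log2 fold change −0.24, standard error 0.11, unadjusted p of 0.0408 and adjusted p of 0.499 by edgeR). The 3 most abundant were the cathepsins Ctsb, Ctsd and Ctsl, lysosomal proteases, with log2 fold changes of −0.06, −0.05 and 0.11 and adjusted p-values of 0.833, 0.868 and 0.777. Ctss, the protease that trims the invariant chain in antigen-presenting cells, was at 200 CPM in NR-treated mouse 1, 74.5 CPM in non-treated mouse 3 and 39.6 CPM in NR-treated mouse 2. NR-treated mouse 1 was the highest library for 10 of the 14 and non-treated mouse 3 for 1.

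Of the regulators of class II transcription, NR-treated mouse 1 was the highest library for 7 of 19 tested and non-treated mouse 3 for 1. In the comparison of the groups, 1 was lower and 0 higher at an unadjusted p of 0.05, and the median log2 fold change was −0.02. It was Nfyc, a subunit of the CCAAT-binding NF-Y, at 52.9 ± 3.5 CPM with NR and 58.6 ± 2.6 CPM without (log2 fold change −0.15, unadjusted p of 0.0256 and adjusted p of 0.476 by edgeR). Of the other abundant regulators, the kinase Jak1 had a log2 fold change of −0.02 and the NF-Y subunit Nfya one of 0.04, with adjusted p-values of 0.897 and 0.914. Rfxap, a subunit of the RFX complex, varied little, at 33.6 to 39.5 CPM over the 10 mice and at 36.6 and 36.9 CPM in NR-treated mouse 1 and non-treated mouse 3. Ifng, the cytokine that induces Ciita, was at or near 0, with a highest value of 0.337 CPM in NR-treated mouse 1.

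Of 15 genes of class I presentation, 0 passed an unadjusted p of 0.05, and the median log2 fold change was 0.02. The most abundant were H2-D1, a class I heavy chain (859 and 879 CPM on average with and without NR), the chaperone Calr (496 and 502 CPM) and B2m, the light chain (385 and 421 CPM), with adjusted p-values of 0.968, 0.958 and 0.785. NR-treated mouse 1 and non-treated mouse 3 had the highest mean log2 CPM of this list, 6.64 and 6.46, and NR-treated mouse 2 the lowest, 5.99. In NR-treated mouse 1 all 15 genes lay above their median over the 10 mice, in non-treated mouse 3 there were 13, and over all genes tested 49.9% and 48.5% did so in these libraries.

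Of 5 costimulatory ligands tested, 1 was higher in the NR-treated mice at an unadjusted p of 0.05 and 0 were lower, with a median log2 fold change of 0.18. It was Cd274, which encodes the checkpoint ligand PD-L1, at 10.8 ± 2.0 CPM with NR and 8.48 ± 1.3 CPM without (log2 fold change 0.35, unadjusted p of 0.0341 and adjusted p of 0.483 by edgeR). Icosl and Cd86 had log2 fold changes of −0.11 and 0.45 with adjusted p-values of 0.662 and 0.662.

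Markers of the cells that could carry class II were set beside the members. All 15 macrophage markers were detected in every library, and the list averaged a log2 CPM of 4.08 to 5.40 in the NR-treated and 4.44 to 4.97 in the non-treated mice, with 0 of 15 at an unadjusted p of 0.05. NR-treated mouse 1 was the highest library for 12 of the 15, with Csf1r, the receptor that macrophages need to survive, at 151 CPM and Adgre1, which encodes F4/80, at 23.1 CPM. Non-treated mouse 3 was the highest for 0 of the 15 and ranked 9th of 10 by the level of the list, with Csf1r at 71.8 CPM and Adgre1 at 11.1 CPM, close to the medians of 78.8 and 10.7 CPM over the 10 mice. It lay above the median of the 10 mice for 7 of the 15 genes, among them Fcgr1, an antibody receptor, at 6.19 CPM against a median of 4.61 CPM, whereas NR-treated mouse 1 did so for 14. Non-treated mouse 3 was also the lowest library for 2 of the 15, as it was for 12.8% of all genes tested. These were Cd68, at 17.2 CPM against a median of 27.4 CPM, and Lyve1, at 2.02 CPM against 3.16 CPM. NR-treated mouse 2 ranked last.

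**Figure D4:**
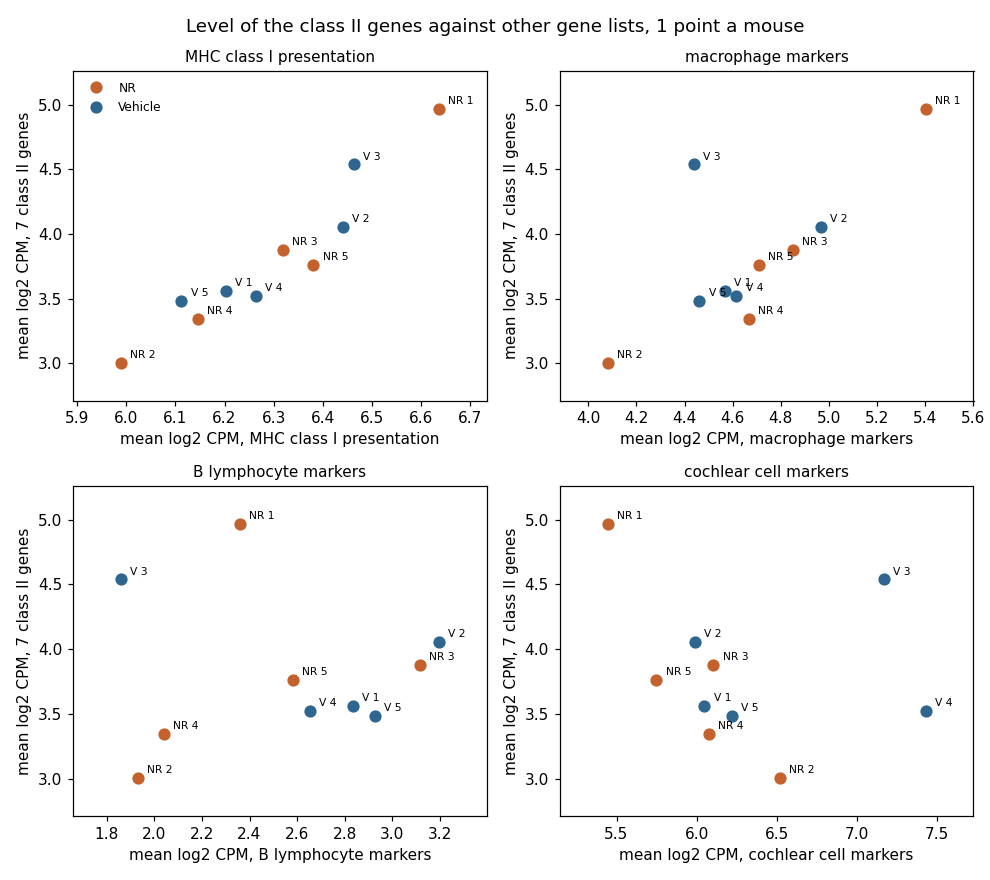
Mean log2 CPM of the 7 class II genes (vertical) against the mean log2 CPM of class I presentation genes, macrophage markers, B lymphocyte markers and cochlear cell markers (horizontal), with 1 labelled point per mouse (NR, NR-treated; V, non-treated). NR-treated mouse 1 and non-treated mouse 3 lie at the upper right of the class I panel, but at opposite sides of the cochlear panel (5.44 and 7.17), and non-treated mouse 3 lies among the lowest macrophage levels (4.44).

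Dendritic cell markers had a mean log2 CPM of 1.17 to 2.22 with NR and 1.26 to 1.96 without, with NR-treated mouse 1 first and non-treated mouse 3 in place 5. 1 of the 10 tested, Siglech of plasmacytoid dendritic cells, was lower with NR at an unadjusted p of 0.00903 (adjusted p of 0.433 by edgeR), and Cd207 was at or near 0. The 12 B lymphocyte markers ranged from 1.93 to 3.11 with NR and from 1.86 to 3.20 without, and non-treated mouse 3 was last and NR-treated mouse 1 seventh. Ighm alone of this list passed an unadjusted p of 0.05, lower with NR at a log2 fold change of −1.56 (unadjusted p of 2.47e-04 and adjusted p of 0.306 by edgeR). DESeq2 gave it an adjusted p of 7.4e-05, the only gene of the list below 0.05. T lymphocyte markers were scarce, with a mean log2 CPM of 0.04 to 1.61 with NR and 0.22 to 1.27 without, and NR-treated mouse 1 was the highest for 7 of the 10 tested and non-treated mouse 3 for 0.

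Neutrophil and myeloid progenitor genes placed NR-treated mouse 1 second and non-treated mouse 3 ninth, with mean log2 CPM of 7.82 and 6.19. The cochlear list placed them last and second, at 5.44 and 7.17. Whether these differences in marker levels bear on the class II levels was not tested.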

How the data were processed

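Cochlear RNA-seq of 5 NR-treated and 5 non-treated mice was analysed. The authors deposited unnormalized read counts for each gene, in 1 file per mouse. Per the paper's methods and the submitters' processing notes, reads were filtered (fastp is listed), aligned to mm10 with STAR 2.6.1d and counted with featureCounts 1.5.0 in default mode, which does not use strand and leaves out reads that overlap several genes. The annotation release is not given in the sources used here. Gene coordinates and lengths are those of the files, exon overlaps and transcript windows come from GENCODE vM21 (GRCm38), and promoters are RefSeq sequences.

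Counts were scaled by TMM, and 18329 genes passing filterByExpr were fitted with glmQLFit and glmQLFTest in edgeR 4.0.16 (R 4.3.3) over all 10 mice with no covariate. Adjusted p-values are Benjamini-Hochberg values over those genes. CPM uses TMM-scaled library sizes, and log2 CPM has a prior count of 2. DESeq2 1.42.0 served as an alternative. Ifng, which the filter left out, is given by its CPM only. Exact permutation tests used scipy 1.17.1 (Python 3.11.15) with all 252 labelings, two-sided. Ratios had 0.5 added to each count and were adjusted over the 4 ratios. The 6 correlations with Ciita used 100000 permutations. The fit was tested on simulated data before use. No pair of libraries agreed within sampling noise.

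The members and the gene lists were chosen with earlier results of these data known. Named are all members, list genes at an unadjusted p of 0.05, up to 3 of the highest mean CPM in each pathway list, and genes from the 10 most like the members. Some items are not reported here. Ctss, Rfxap, H2-Ea-ps and the marker genes given beside them were picked after their values were seen. 11 symbols, March8 among them, had been turned into dates and were resolved by gene ID. Alternatives were other tools, scalings, filters, a replicate block, and leaving out mice.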

Additional observations from a re-analysis of the deposited data

Results flagged for a closer look

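NR-treated mouse 1 lay far from the other NR-treated mice in H2-Ab1, at 71.7 CPM against 22.6 CPM in the next, a gap of 0.821 of the group's range, and in Cd74, at 557 CPM against 206 CPM, a gap of 0.763. Among the marker lists, 3 groups were singled out in the same way: the T lymphocyte list in non-treated mouse 2 (mean log2 CPM of 1.27 against 0.45, a gap of 0.784), the neutrophil and myeloid progenitor list in NR-treated mouse 2 (5.999 against 7.70, a gap of 0.901) and the skeletal muscle list in non-treated mouse 1 (3.27 against 0.72, a gap of 0.770). The limit for 5 samples is 0.71, which chance passes in about 1 of 20 groups, and 54 groups were examined.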

How the results depend on the processing

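The 7 fold changes and the 4 ratios stayed short of their thresholds under every alternative tried, and none of the 7 genes reached an unadjusted p of 0.05 in any of them. Each of the 7 fold changes turned direction under at least 1 alternative, as did the ratios of H2-Aa and H2-DMa to H2-Ab1, while those of H2-Eb1 and Cd74 to H2-Ab1 kept theirs under all 12. When 1 mouse was left out at a time, the log2 fold change ranged from −0.64 to 0.43 for H2-Aa, −0.77 to 0.44 for H2-Ab1, −0.059 to 0.36 for H2-Eb1, −0.54 to 0.41 for Cd74, −0.22 to 0.061 for H2-DMa, −0.10 to 0.25 for H2-DMb1 and −0.30 to 0.35 for Ciita. The log2 ratios to H2-Ab1 ranged over the same omissions from −0.074 to 0.11 for H2-Aa, 0.13 to 0.56 for H2-Eb1, 0.01 to 0.14 for Cd74 and −0.19 to 0.36 for H2-DMa. With both NR-treated mouse 1 and non-treated mouse 3 left out, chosen after seeing the data, Cd74 (−0.18), H2-DMb1 (−0.050) and Ciita (−0.11) turned negative, and 1006 genes passed an unadjusted p of 0.05 in place of 1780. DESeq2 called 103 genes at an adjusted p of 0.05 in place of 0. Leaving out single mice gave 0 to 1 genes at an adjusted and 1153 to 2440 at an unadjusted p of 0.05, the lowest without NR-treated mouse 3. The cause of these shifts was not tested.

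The labels number the mice of both groups 1 to 5, but same-numbered mice did not deviate together (correlations of 0.17, −0.12, −0.22, 0.02 and 0.13, and 1 of the 5 matched its own number best). No pairing by number was thus detected, although these 5 values cannot exclude one. A replicate block gave −0.11 for Cd74 and −0.012 for Ciita, with 1655 genes at an unadjusted p of 0.05, and 0 at an adjusted p. For the ratios, sign flips over 5 such pairs cannot give a p below 0.0625. At 5 mice a group, the 95% intervals of the A chains and Cd74 reach past 1 on the log2 scale in both directions. Changes of about that size are thus not excluded for them. The intervals do not give the smallest change that would have been detected. H2-Eb1 rests on 44 to 117 reads a library.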
